A study of Mus musculus with 2 samples.

Results

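The genes described here are 10 that serve the cornified envelope of the epidermis: the transglutaminase genes Tgm1, Tgm3 and Tgm5, the protease genes Casp14 and Asprv1, the protease inhibitor gene Cst6, and the structural genes Cdsn, Cnfn, Evpl and Ppl. They were chosen by name, and every non-control probe whose RefSeq accession maps to 1 of them was taken, which gave 12 probes for 10 genes out of 18217 genes named on the array. Of the 12 probes, 11 were well above background on both arrays, and each of the 10 genes had at least 1 such probe. The samples were peeled mouse epidermis in the steady state, each hybridised to 1 of 2 Agilent arrays in a single colour. The control sample was Nfkbiz flox/flox. The knockout sample was Nfkbiz flox/flox with K5-cre, so both carried the floxed alleles of Nfkbiz, the gene of the nuclear IκB protein IκBζ. The keratin 5 promoter drives Cre in basal keratinocytes and in the cells that descend from them, and the other cells of the epidermis keep the gene. The age, sex and number of the mice behind each RNA sample are not stated in the labels.

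The cornified envelope is a shell of crosslinked protein that replaces the plasma membrane of a keratinocyte as it dies and becomes a corneocyte. Envoplakin and periplakin, the products of Evpl and Ppl, form the first scaffold beneath the membrane, and transglutaminases then join precursors such as involucrin, loricrin and the small proline-rich proteins to it through isopeptide bonds. Caspase-14 and the aspartic protease encoded by Asprv1 take part in processing filaggrin, cystatin M/E (Cst6) restrains cathepsins and legumain, corneodesmosin (Cdsn) is an adhesive protein of the junctions between corneocytes, and cornifelin (Cnfn) is a component of the envelope.

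Promoters are shown here because IκBζ acts in the nucleus as a partner of NF-κB on DNA, and because the signals of these genes lay close together on the 2 arrays. RefSeq promoter windows (GRCm38.p6) were matched for 7 of the 10 genes by symbol, in 9 windows. The 250 bases before each start were searched on both strands for the cores of the NF-κB and AP-1 sites, for a TATA box and for a GC box. The 7 windows that hold a match, 1 for each of the 7 genes, are printed 5′ to 3′ up to the base before the start, with the matches in capitals:
Tgm1, chr14:55713493-55713742, minus strand: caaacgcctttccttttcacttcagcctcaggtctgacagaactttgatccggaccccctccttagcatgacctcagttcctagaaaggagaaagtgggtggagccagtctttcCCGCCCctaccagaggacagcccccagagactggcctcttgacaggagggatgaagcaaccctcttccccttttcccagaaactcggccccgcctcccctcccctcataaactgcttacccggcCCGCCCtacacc
Tgm3, chr2:130012090-130012339, plus strand: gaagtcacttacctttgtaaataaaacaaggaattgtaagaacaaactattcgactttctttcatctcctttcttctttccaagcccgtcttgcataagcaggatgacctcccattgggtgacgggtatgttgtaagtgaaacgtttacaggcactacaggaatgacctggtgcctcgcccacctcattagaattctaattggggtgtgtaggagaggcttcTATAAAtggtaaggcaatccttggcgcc
Tgm5, chr2:121085842-121086091, minus strand: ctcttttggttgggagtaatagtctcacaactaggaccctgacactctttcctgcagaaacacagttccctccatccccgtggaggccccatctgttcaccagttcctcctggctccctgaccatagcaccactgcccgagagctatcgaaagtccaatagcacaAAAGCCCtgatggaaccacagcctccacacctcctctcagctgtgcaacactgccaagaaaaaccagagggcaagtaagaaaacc
Casp14, chr10:78718294-78718543, minus strand: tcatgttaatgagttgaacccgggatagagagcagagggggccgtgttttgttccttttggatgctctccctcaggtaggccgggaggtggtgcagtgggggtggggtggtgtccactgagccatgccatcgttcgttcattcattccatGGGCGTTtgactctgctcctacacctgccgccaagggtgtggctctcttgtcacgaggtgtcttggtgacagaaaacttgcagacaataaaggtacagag
Asprv1, chr6:86627924-86628173, plus strand: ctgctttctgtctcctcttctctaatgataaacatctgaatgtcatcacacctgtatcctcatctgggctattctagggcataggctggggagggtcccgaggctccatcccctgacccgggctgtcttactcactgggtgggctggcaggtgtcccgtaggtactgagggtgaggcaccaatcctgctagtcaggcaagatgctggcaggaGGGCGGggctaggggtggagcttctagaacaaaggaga
Cdsn, chr17:35542851-35543100, plus strand: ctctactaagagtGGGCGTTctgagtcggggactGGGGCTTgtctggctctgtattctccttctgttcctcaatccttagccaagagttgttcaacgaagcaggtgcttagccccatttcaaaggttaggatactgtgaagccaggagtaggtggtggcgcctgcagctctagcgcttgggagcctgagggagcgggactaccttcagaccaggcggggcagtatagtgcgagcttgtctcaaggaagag
Cnfn, chr7:25369725-25369974, minus strand: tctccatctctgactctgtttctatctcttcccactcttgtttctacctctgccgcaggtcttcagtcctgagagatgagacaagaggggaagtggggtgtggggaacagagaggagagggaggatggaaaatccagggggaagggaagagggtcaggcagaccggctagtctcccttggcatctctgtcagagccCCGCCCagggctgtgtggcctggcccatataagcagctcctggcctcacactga
A strict NF-κB core, searched as GGGANTT, was in none of the 9 windows and in 14.4% of all 32851 windows of the same length. A looser core, searched as GGGNNTT, which takes in the strict one, was found in the windows of Tgm5, Casp14 and Cdsn, 3 of the 9, and in 41.2% of all windows. The AP-1 core, searched as TGANTCA, was in none of the 9 and in 6.75% of all. The TATA box, searched as TATAAA, was found in the window of Tgm3, 23 to 28 bases before the start, and in 12.4% of all windows. The GC box, searched as CCGCCC, was found in the windows of Tgm1, Asprv1 and Cnfn and in 32.7% of all windows, with no overlap between matches. These patterns were settled on after matches of longer NF-κB patterns in the same windows had been seen, a permissive one of which did match some of them, so the presence or absence of a core here depends on the letters chosen. Such a match is a run of letters and not a bound site, and a pattern that was not matched is only missing from these bases.

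Each array was scaled to its own 75th percentile, which was 194 for the control and 227 for the knockout. Probes well above background made up 56.2% of the control array and 56.3% of the other, and no probe was saturated. With 1 array per genotype no difference has a replicate check, no p-value was computed, and only 2 arrays limit the precision. Values after ± are standard errors that the scanner software's error model gives for a log2 difference, and the 95% intervals are built on them. Both describe technical error on a pair of arrays, and variation between mice is not in them. Nfkbiz itself had a signal of 3100 on the control array and of 1760 on the knockout array, a log2 difference of -1.04 ± 0.20, or 2.06-fold lower. Median scaling, which moves every gene up by 0.35 on the log2 scale, gave -0.70 for it. The labels do not say whether its single probe reads the deleted part, and a probe outside that part would check nothing.

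All 10 genes of the envelope machinery lay close together on the 2 arrays. None was at least 2-fold lower, against 4.47% of the 12396 genes measured on both arrays, and none was at least 2-fold higher, against 2.98%. Under median scaling none was lower, against 2.28% of genes, and none was higher, against 8.14%. Since 92.5% of all measured genes lay within 2-fold, that count by itself does not set the 10 genes apart. Their log2 differences ran from -0.37 for Cnfn to 0.07 for Cst6, with a median of -0.11, beside a median of -0.05 over all measured genes. Relative to that median gene, 7 of the 10 were lower and 3 higher, and the median of the 10 was -0.06. The median size of the difference, without its sign, was 0.11 for the 10 genes and 0.31 for all measured genes. Among the 9441 genes whose mean signal lay within the range of the 10, it was 0.28, and 60.1% of them differed by no more than Cnfn. That range ran from the dim Tgm3 to the bright Evpl, so these genes were not matched to the 10 for brightness. Of the lists described below, the median size was 0.10 for the suprabasal keratinocyte markers and 0.18 for the plakins and desmosomal partners. For the envelope precursors it was 0.37. Each of these sizes depends on where the scaling places 0. Under median scaling 9 of the 10 genes lay above 0, with a signed median of 0.24, beside 0.30 over all measured genes. The sizes without sign were not compared under that scaling. Each of the 10 intervals from the error model covered 0 and lay within 2-fold, the lowest bound being -0.77 and the highest 0.47. The share of all genes with such an interval was not counted. Standard errors of the 10 were 0.20 to 0.22, and 56.6% of all measured genes differed by no more than Cnfn, whose interval covered 0. The count of intervals by itself therefore does not set the 10 genes apart. The difference between the spread of these genes and that of all genes was not tested.

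**Figure D1:**
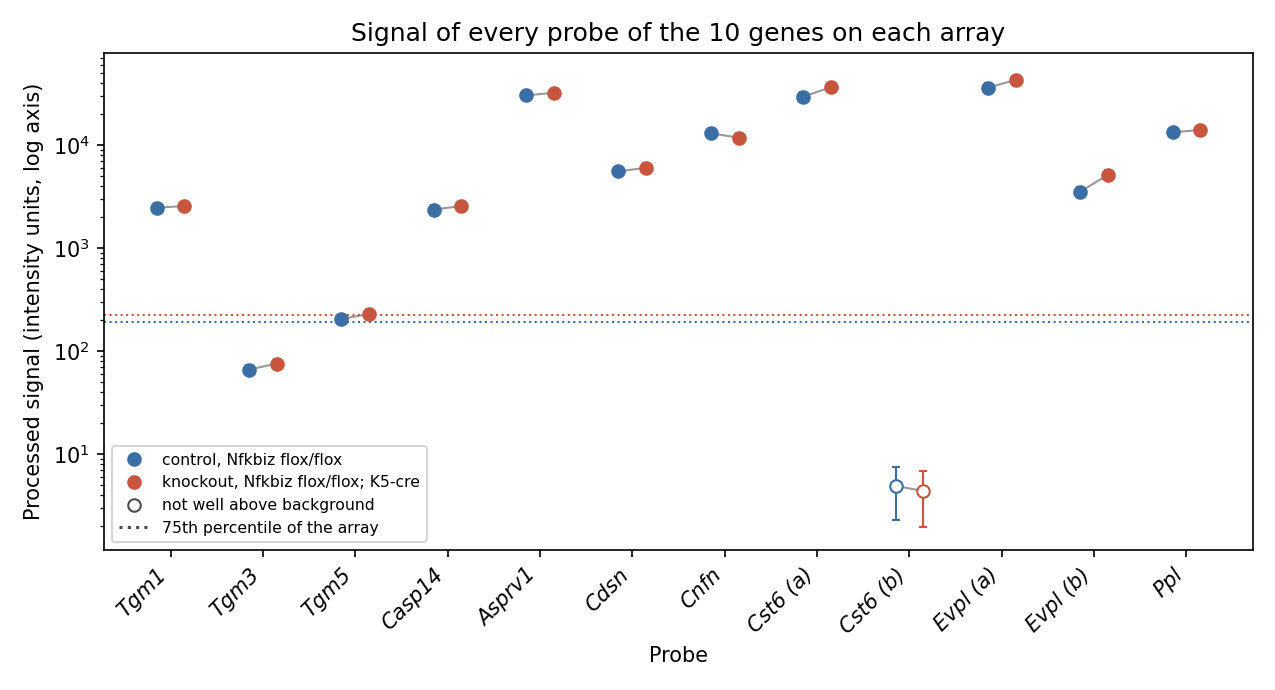
Processed signal in intensity units on a log axis for each of the 12 probes of the 10 genes, control in blue and knockout in red, with the error of the scanner software's model as bars, most of them smaller than the symbols. The pairs lie almost level except for the dimmer Evpl probe (b), at 3550 and 5190, and the dimmer Cst6 probe (b) is not well above background on either array (open symbols). Different probes bind with different strength, so heights of different probes cannot be compared.

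The transglutaminase genes showed nearly equal signals on the 2 arrays. Tgm1, which encodes the membrane-anchored keratinocyte enzyme that is mutated in human lamellar ichthyosis, had a signal of 2480 on the control array against 2580 on the knockout array. After scaling, its log2 difference was -0.17 ± 0.20, with an interval from -0.57 to 0.23. Tgm3, the epidermal and hair follicle transglutaminase that is made as a zymogen, had signals of 66.4 and 76.1 and differed by -0.03 ± 0.22. It lay below the 75th percentile on both arrays, and its spots carried errors of 11.0% and 10.6% of the signal. Tgm5, whose human counterpart is mutated in acral peeling skin, had signals of 206 and 231 and differed by -0.06 ± 0.21. The log2 difference of Tgm1 was lower than that of Tgm3 by 0.14 with a standard error of 0.30. It was lower than that of Tgm5 by 0.11 with a standard error of 0.29. At this technical precision the differences of the 3 genes between the 2 arrays could not be told apart.

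Of 5 other transglutaminase genes listed, 3 were measured on both arrays, 1 of them at least 2-fold lower and none higher. Tgm2, the widely expressed tissue transglutaminase, had signals of 75.5 and 32.4, a log2 difference of -1.45 ± 0.25, which was -1.10 under median scaling and -0.69 under normexp background correction. Tgm6, a transglutaminase known from neurons, had signals of 26.2 and 28.2 and differed by -0.12 ± 0.30. F13a1, the A subunit of coagulation factor XIII, had signals of 28.5 and 43.3 and differed by 0.38 ± 0.35. Tgm4 was not well above background on either array, and Tgm7 is not among the probes named here.

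Both processing proteases had similar signals on the 2 arrays. Casp14, the caspase of cornifying keratinocytes, had a signal of 2380 on the control array against 2580 on the knockout array and differed by -0.11 ± 0.20. Asprv1, the skin-specific retroviral-like aspartic protease, had signals of 30600 and 32400 and differed by -0.14 ± 0.20. The differences of these proteases lay 0.03 apart on the log2 scale with a standard error of 0.29. The other caspases on the list, which include those of apoptosis and inflammation, were all measured, and none of the 9 was 2-fold apart. Their median was -0.14, from -0.78 for Casp12 to 0.41 for Casp6, which had signals of 720 and 1120. Of 22 measured corneocyte proteases and deiminases 2 were lower by at least 2-fold. None was higher, and the list's median was -0.11. The lower genes were Padi3, a deiminase of the hair follicle and upper epidermis, at -1.29 ± 0.20 (signals 679 and 326), and Prss8, the membrane-anchored protease prostasin, at -1.15 ± 0.20 (signals 847 and 446). Under median scaling neither passed 2-fold, at -0.94 and -0.80.

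Cst6 had the highest difference of the 10 genes under each of the 5 scalings, though Evpl was higher when its 2 probes were averaged. Its brighter probe had a signal of 29800 on the control array against 36700 on the knockout array, a difference of 0.07 ± 0.20 after scaling. Its other probe, which reads the same RefSeq accession, had signals of 4.94 and 4.40, not well above background on either array, so that probe gives no difference. The proteases that cystatin M/E is known to restrain were chosen for that tie and not by the rule for named genes. Ctsl, the gene of cathepsin L, had signals of 12300 and 12100 (-0.25 ± 0.20), and Lgmn, the gene of legumain, 998 and 748 (-0.64 ± 0.20). Neither passed 2-fold, and under median scaling Ctsl was at 0.10 and Lgmn at -0.30.

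Among 17 measured cystatins and other protease inhibitors, the member Cst6 left aside, 2 were lower by at least 2-fold. None was higher, and the list's median was -0.35. Slpi, an antileukoproteinase with antimicrobial activity, had signals of 1010 and 215 (-2.46 ± 0.20, 5.50-fold), and Csta2, a stefin A cystatin of the mouse, was at 667 and 153 (-2.35 ± 0.20, 5.10-fold). Stefin A genes are near-identical copies of each other, so the Csta2 probe may read more than 1 of them. Both genes were at least 2-fold lower under each of the 5 scalings. Of the other stefin A genes, Csta1 had signals of 22300 and 20400 (-0.36) and Stfa1 2610 and 2390 (-0.35), while Stfa2 had 68.6 and 112 (0.48) and Stfa3 1940 and 2470 (0.12). The other measured probe of Csta1 differed by 0.56, so its 2 probes lay on opposite sides of 0.

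**Figure D2:**
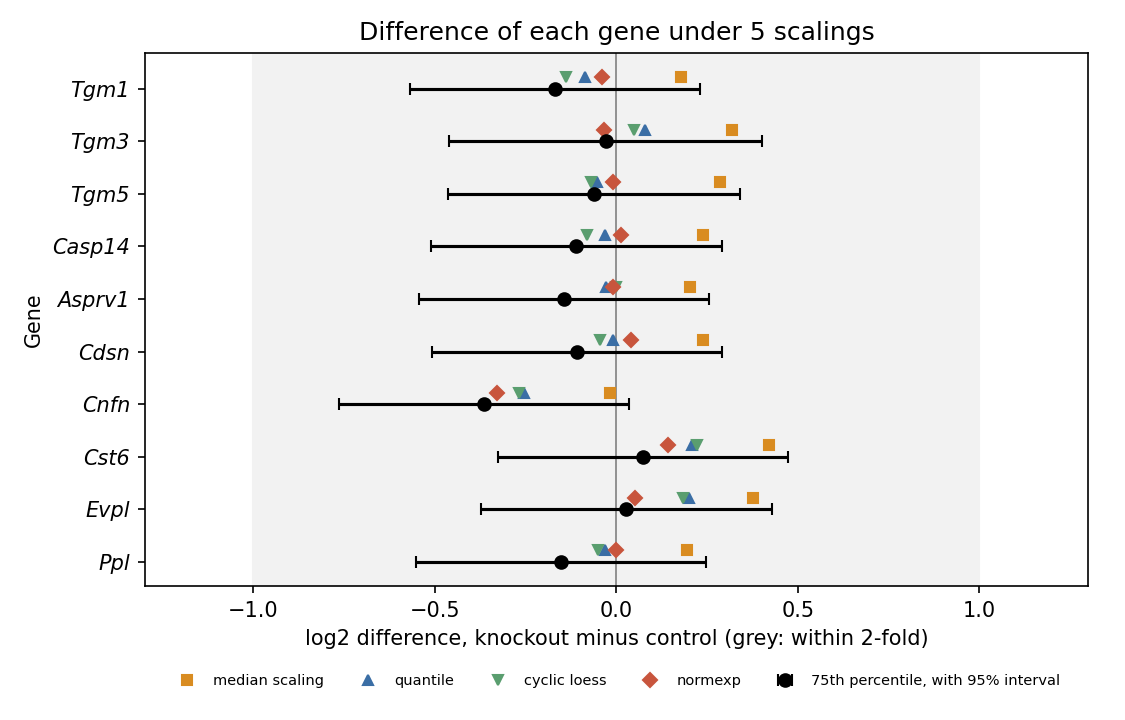
The log2 difference, knockout minus control, of each of the 10 genes, with the 95% interval of the scanner software's error model around the value scaled to the 75th percentile (black) and the values under 4 other scalings (coloured symbols). Every symbol lies within 2-fold (grey). Median scaling places 9 of the 10 genes above 0, but it also places the median over all measured genes at 0.30. Cnfn is the lowest under each scaling.

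The scaffold genes also had similar signals on both arrays. Evpl was read by 2 probes, with signals of 36300 and 43300 on the control and knockout arrays for the brighter and 3550 and 5190 for the dimmer. The brighter probe differed by 0.03 ± 0.20 and the dimmer by 0.32 ± 0.20, a gap of 0.29 with a standard error of 0.29, so the gap was slightly over 1 standard error. The mean over both probes was 0.17. Ppl, the partner of envoplakin, had signals of 13400 and 14100 and differed by -0.15 ± 0.20. The difference of Evpl lay above that of Ppl by 0.18 with a standard error of 0.29.

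Cdsn, whose product is cleaved as corneocytes shed, had a signal of 5590 on the control array against 6070 on the knockout array and differed by -0.11 ± 0.20. Of the kallikrein proteases known to cleave corneodesmosin, Klk7, among the brightest of its list, had signals of 26900 and 30100 (-0.06 ± 0.20), and Klk5, chosen for that tie, 4640 and 5240 (-0.05 ± 0.20). The 3 measured probes of Klk7 disagreed, with differences from -0.73 to -0.04. Of the 10 genes, Cnfn alone had a lower signal on the knockout array before scaling, 11900 against 13100 on the control array. After scaling it differed by -0.37 ± 0.20, or 1.29-fold lower, with an interval from -0.77 to 0.03, and 24.4% of measured genes lay lower still. Under median scaling it was at -0.02. The median difference of the 17 measured spots within 3 rows and 3 columns of the Cnfn spot was -0.27. Around the spots that stand for the other genes that median ran from -0.41 near Asprv1 to 0.18 near Cdsn, so neighbouring spots differed between the arrays by amounts of this size, and the part of position in the values was not tested. None of the 12 probes had a non-uniform spot in that neighbourhood.

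The plakins and desmosomal partners had 18 measured genes, of which 2 were lower by at least 2-fold. None was higher, and the list's median was -0.07. Dsg3, a desmosomal cadherin of the lower epidermis, had signals of 412 and 98.8 (-2.29 ± 0.21, 4.88-fold lower), and Eppk1, the epiplakin gene, 1100 and 534 (-1.27 ± 0.20, with -0.92 under median scaling and -0.96 under normexp). The desmoplakin gene Dsp and the plectin gene Plec, chosen after their values were seen because they are plakins like Evpl and Ppl, differed by -0.08 ± 0.20 and 0.00 ± 0.20. The 4 measured probes of Dsp ran from -0.28 to 0.36. The 4 structural genes, Evpl and Ppl among them, had a median of -0.13.

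The precursors that these enzymes crosslink spread from -3.07 to 0.73 on the log2 scale. Of 33 measured precursors and transglutaminase substrates 8 were lower by at least 2-fold, 5 of them under each of the 5 scalings. None was higher, and the list's median was -0.21. Under median scaling 7 were lower and 1 was higher. The furthest down were Sprr2d (signals 225 and 31.4, -3.07 ± 0.24), Lce3c (3100 and 515, -2.82 ± 0.20) and Sprr2h (812 and 165, -2.53 ± 0.21), genes of small proline-rich and late envelope proteins. Rptn, the repetin gene, followed at -1.90 ± 0.35, then Sprr1a at -1.76 ± 0.20 and Sprr1b at -1.68 ± 0.21. Under normexp background correction Rptn was at -0.65, no longer 2-fold apart, and Sprr2d at -1.76, with Lce3c then the lowest of these 6 at -2.64. Sprr2f and Lce3f, measured on the control array alone, were at least 6.81-fold and 5.88-fold lower. Each bound sets the control level against the knockout probe's own level or against the dimmest signal well above background there, whichever was higher. The Sprr genes did not move as 1 family. Sprr2g was also lower, at -1.64, but Sprr2e at -0.37, Sprr2k at -0.06 and Sprr2b at 0.01 lay within 2-fold. So did Sprr2a1 at 0.29, with its other measured probe at 0.89, and Sprr4 at 0.73. Whether a probe of the Sprr or Lce genes reads more than 1 of them was not tested. Other precursors did not pass 2-fold: loricrin (Lor) had signals of 44200 and 48100 (-0.10), involucrin (Ivl) 1170 and 1520 (0.15) and Flg2 12000 and 14500 (0.05), these 3 chosen after their values were seen. Krt10, the suprabasal keratin, had signals of 76900 and 80200 (-0.17). Crct1, with Krt10 the brightest of the list, had signals of 69700 and 53800 (-0.60). Some late envelope genes came closer to 2-fold: Lce1h at -0.92, Lce1d at -0.86, Lce1f at -0.81 and Lce1i at -0.78. The remaining Lce1 genes within 2-fold ran from -0.54 for Lce1l to 0.36 for Lce1e. The list was chosen with earlier results of these data known, and the difference between 8 of 33 and 0 of 10 was not tested.

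**Figure D3:**
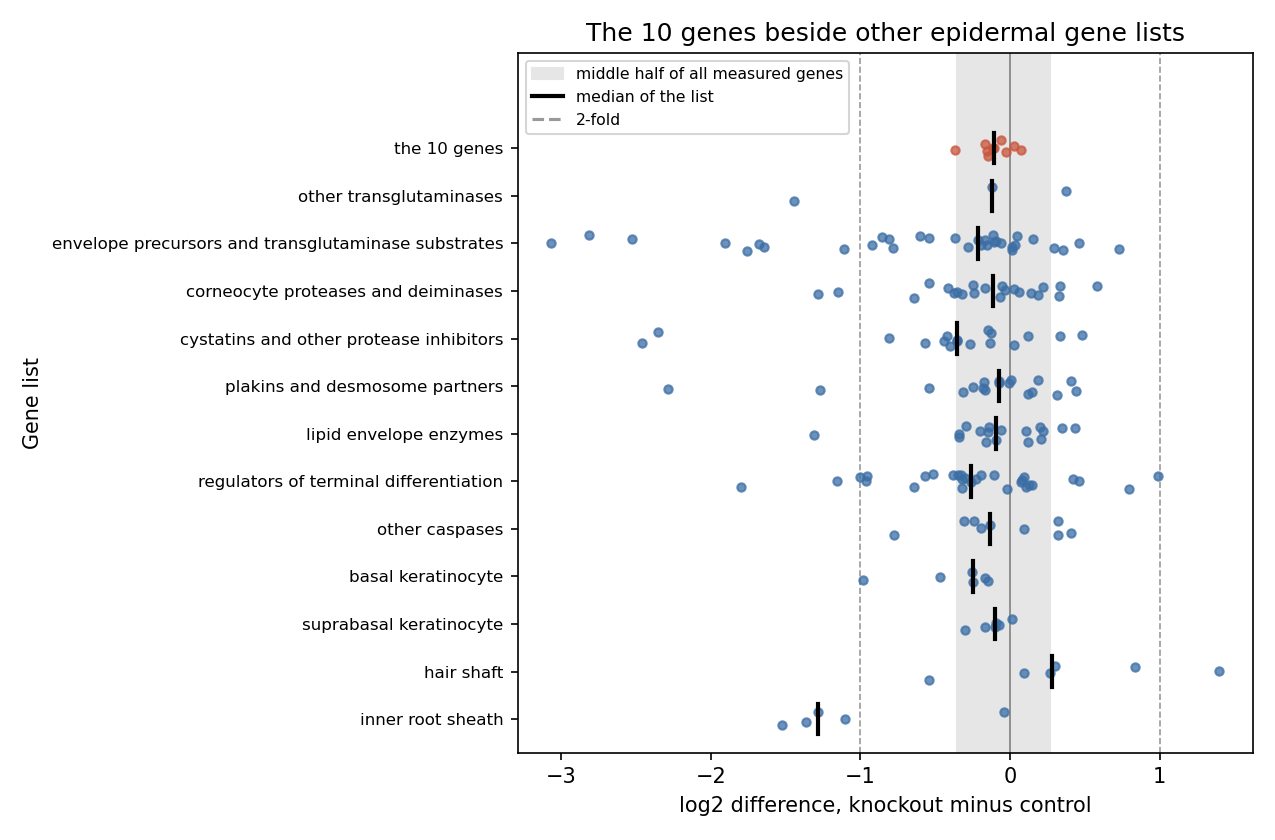
Log2 difference, knockout minus control, of the 10 genes (red) and of the measured members of other epidermal gene lists (blue), with the median of each list as a black bar, 2-fold as dashed lines, and the middle 50% of all measured genes, from -0.35 to 0.27, in grey. The red points run from -0.37 to 0.07, while the envelope precursors reach down to -3.07 and the inner root sheath markers to -1.53.

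Most genes of the lipid envelope and most regulators of differentiation lay within 2-fold. Of 17 measured enzymes of the lipid envelope 1 was 2-fold lower, the fatty acid hydroxylase gene Fa2h at -1.31 ± 0.21 (-0.96 under median scaling and -0.78 under normexp), and none was higher, with a median of -0.10. These counts rest on the brightest probe of each gene. Abca12 was at -0.06 and Ugcg at -0.34 by that probe, but at -1.68 and -1.46 by their other measured probes. Elovl1, a fatty acid elongase gene, had signals of 17600 and 26200 (0.35 ± 0.20). Of 29 measured regulators of terminal differentiation 3 were lower by at least 2-fold. None was higher, and the list's median was -0.26. Among the lower genes were the AP-1 subunit gene Fosl1 (-1.80 ± 0.20, signals 1650 and 554) and the receptor gene Notch1 (-1.01 ± 0.20, signals 880 and 513). Notch1 was at -0.66 under median scaling, at -0.996 under quantile normalization, just short of 2-fold, and at -0.75 under normexp. Under median scaling 2 other regulators were at least 2-fold higher. Median scaling placed the medians of 7 of these 8 gene lists above 0 and that of the cystatins and other inhibitors at -0.01. Relative to the median gene, which moves with the scaling, the list medians ran from -0.31 for those inhibitors to -0.03 for the plakins and desmosomal partners, and the 10 genes had -0.06.

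The labelled tissue was checked against markers. All 6 basal and all 6 suprabasal keratinocyte markers were well above background on both arrays, and none of the 12 was 2-fold apart. The suprabasal markers, of the layer from which corneocytes form, differed by -0.30 to 0.02 with a summed signal of 192400 on the control array against 208130 on the knockout array, a scaled log2 difference of -0.11. This value is a ratio of sums. The median of the single log2 differences was -0.10 for these markers and -0.11 for the 10 genes. The basal markers had summed signals of 180370 and 181480, a scaled difference of -0.22. Singly they ran from -0.98 for Itga6 (signals 2770 and 1640), just short of 2-fold, to -0.15 for Krt15. In such bulk samples fewer cells of a type and less RNA per cell cannot be told apart.

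Some of the 10 genes are also known from the hair follicle, Tgm3 and Cdsn among them, and hair markers moved in both directions. Of the inner root sheath markers 5 of 8 were measured, and 4 were at least 2-fold lower (summed signals 31343 and 14764, a scaled log2 difference of -1.31). Under median scaling 2 of these 4 stayed 2-fold lower, and Krt25 and Krt71 were at -0.76 and -0.94. Of the hair shaft markers 6 of 9 were measured, with 1 at least 2-fold higher, Krt34 at 1.40 ± 0.20, and none lower (summed signals 7784 and 10017, a scaled difference of 0.14). Krt33b was at 0.27 by its brighter probe, but its other measured probe was at -1.64. Median scaling gave 2 hair shaft markers at least 2-fold higher. Tgm3 at -0.03 and Cdsn at -0.11 lay between these lists, and the part of follicle content in their values was not tested. Blood and muscle markers were lower on the knockout array, with summed signals of 18354 and 2133 for 4 red blood cell genes and 761 and 263 for 4 skeletal muscle genes. Of these muscle genes 3 were at least 2-fold lower, while Mylpf was at -0.04. Of the 5 endothelial markers none was measured on both arrays. Emcn was measured on the control array alone, with signals of 55.6 and 3.38, and was at least 5.38-fold lower. The other endothelial markers were not well above background on either array. Langerhans cell markers had summed signals of 13302 and 21788, though 1 of the 5, Epcam, was lower at -0.38, and 3 measured melanocyte markers had 1727 and 466. Summed signals were 1148 and 1785 for 4 T cell markers, a scaled log2 difference of 0.41, with Cd247 alone at least 2-fold higher by its brighter probe (1.20, the other measured probe being at -0.33). They were 3498 and 5315 for 4 measured sebocyte markers, a scaled difference of 0.38. Of these 4, 2 lay below 0, Mgst1 at -0.27 and Pparg at -0.41, and the list's median was 0.03. For 5 measured dermal fibroblast markers the summed signals were 2527 and 2534, a scaled difference of -0.22. The part of these cells in the values of the 10 genes was not tested.

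The 10 genes do not lie side by side in the genome. In the order of protein-coding genes of GRCm38.p6, none of the 10 is next to another of them, while Tgm5 is next to Tgm7. Of the 20 genes directly beside them, 11 were measured on both arrays. Their log2 differences ran from -1.26 to 0.38 with a median of -0.22, and 2 were at least 2-fold lower and 0 at least 2-fold higher. Those 2 were Tinf2 beside Tgm1 (signals 351 and 171, -1.26) and Lipe beside Cnfn (signals 110 and 62.6, -1.04), named after their values were seen, and neither passes 2-fold under median scaling, which adds 0.35. The highest was Ten1 beside Evpl, at 0.38.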

How the data were processed

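The scanner files were written by Agilent Feature Extraction 10.7.3.1, per the file headers, for a mouse design with mm9 annotation. The slide and the scan were shared by both arrays. The deposited intensity of a spot is background-subtracted and detrended within the array, per the file headers, and is given to 3 digits. From it, log2 processed signals were averaged over the spots of a probe, without control spots and spots marked as outliers, and the 75th percentile over probes was subtracted for each array. A probe was measured when well above background and not saturated. RefSeq accessions (GRCm38.p6, used for names, gene order and promoter windows) named 26690 of 41174 probes. The probe with the highest mean scaled signal stood for a gene.

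The authors' deposited table of log2 values was an alternative. Its columns sum to 0 for each probe, so it was centred over the arrays, the column medians are 0.14 and -0.14, and its differences had an offset of -0.00 from the scanner values, which leaves its scale and direction settled.

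Further alternatives scaled to the median, by quantile normalization or by cyclic loess, or used normexp with an offset of 50 on median spot signals (limma 3.58.1, R 4.3.3; spots marked as non-uniform were left out of its fit, a choice made after seeing the data), other rules for probes, and folds of 1.5 and 3. The remaining steps ran in Python 3.11.15 (pandas 2.3.3, numpy 2.4.6), with figures from matplotlib 3.10.9. Promoter patterns were chosen after matches had been seen. Members and lists were chosen with earlier results of these data known. Named genes were the 10 members and Nfkbiz, and of each list up to 6 genes at least 2-fold apart and the brightest 2, in part. Some others were named after their values were seen. A gene that this rule names among the regulators is counted but not reported here. Levels of different probes were ranked only to pick a gene's probe and the brightest genes of a list. No likeness of pattern can be ranked over 2 arrays.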

Additional observations from a re-analysis of the deposited data

How the results depend on the processing

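No paired analysis was possible because the design has 1 array for each genotype. Under median scaling the 10 genes moved by more than their standard error, each by 0.35. Their median went from -0.11 to 0.24. The values were 0.18 for Tgm1, 0.32 for Tgm3, 0.29 for Tgm5, 0.24 for Casp14, 0.20 for Asprv1, 0.24 for Cdsn, -0.018 for Cnfn, 0.42 for Cst6, 0.38 for Evpl and 0.19 for Ppl. The median over all measured genes moved from -0.05 to 0.30, so the distance of each gene from it stayed as it was. Under quantile normalization, cyclic loess, normexp and the authors' table, each of the 10 moved by less than its standard error, though 4 of 10 were above 0 under loess and under normexp. Averaging over measured probes could move Evpl alone, which went to 0.17, also by less than its standard error. Leaving out the background filter, or the spots near non-uniform ones, could change none of the 10 values, so these settings are no check on them. The counts of genes at least 2-fold lower and higher were 0 and 0 under each of these settings. They were 0 and 0 at folds of 1.5 and 3 too, where the count at 3 follows from that at 2. Of all genes 2-fold apart, 40.04% were higher under the 75th percentile and 78.1% under median scaling. The error floor of about 10% of a spot's signal sets the precision for all but Tgm3, Tgm5 and the dim Cst6 probe.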
